A study of Mus musculus with 20 samples.

Results

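The genes described here encode the proteins of the cytosolic and the mitochondrial ribosome, chosen by symbol alone: Rpl and Rps with a number, Rplp0 to Rplp2 and Rpsa for the cytosolic class, and Mrpl and Mrps with a number for the mitochondrial class, without S6 kinases and pseudogene rows. The rule picked 165 of the 24421 genes in the tables, of which 88 were cytosolic (53 of the large and 35 of the small subunit) and 77 mitochondrial (48 large, 29 small). Among the symbols, Rps19bp1 (a SIRT1-binding regulator), Rpl7l1 (a factor of the pre-ribosome) and Mrps36 (a subunit of the oxoglutarate dehydrogenase complex) name no standard ribosomal protein but stay in by the rule. RNA was sequenced from bone marrow-derived macrophages of 5 mice, each giving 1 library under each of 4 conditions. The conditions carry the labels' names LP PIC, LP 3M, LP 3M PIC and LP. From the series title, LP is taken to be the lipoparticle, on which LP PIC and LP 3M are single adjuvant formulations and LP 3M PIC the dual one, and the codes PIC and 3M are not interpreted further. All cells, LP included, were grown with L929-conditioned medium, a source of CSF-1, on which macrophages depend, and the exposure lasted 48 h. Strain, age and the amounts of each agent were not used here, so that setting the dual beside a single formulation assumes equal amounts.

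Cytosolic ribosomes translate nuclear-encoded mRNA. Many of their protein mRNAs begin with a terminal oligopyrimidine (TOP) tract, a C followed by pyrimidines, through which mTORC1 and the RNA-binding protein Larp1 control their translation and stability together. Mitochondrial ribosomes are built from imported nuclear-encoded proteins and translate the few mitochondrial mRNAs, which encode core subunits of oxidative phosphorylation.

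A few promoter stretches are shown first, each running from 60 bases before to 25 bases from the start site on the gene's strand (RefSeq, GRCm38.p6), because they hold the sequence features that the classes share or do not share. Windows of 300 bases around the start site were held for 135 of the 165 genes, 67 cytosolic and 68 mitochondrial. A TOP start, here a C at the start site followed by at least 4 pyrimidines, stood in 14 of 67 cytosolic genes (20.9%) and 0 of 68 mitochondrial genes, against 3.01% of all genes with a window. Rps21 and Rps6, of the small subunit, both have such a start, printed in capitals, and are shown because Rps21 fell in LP 3M PIC while Rps6 was not called there.
Rps21 (chr2:180257319-180257403, plus strand): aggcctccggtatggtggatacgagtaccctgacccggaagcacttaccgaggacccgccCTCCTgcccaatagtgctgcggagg
Rps6 (chr4:86857343-86857427, minus strand): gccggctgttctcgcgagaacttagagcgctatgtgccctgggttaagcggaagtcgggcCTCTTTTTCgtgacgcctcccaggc
Another annotated start of Rps21 has no TOP sequence, and start sites here are RefSeq's, not measured in these cells. The ETS motif CCGGAAG, searched on both strands (CTTCCGG on the other), was in 26 of 67 cytosolic genes (38.8%) and in 25 of 68 mitochondrial genes (36.8%), against 9.93% of all genes. Mrpl52, Mrpl53 and Mrpl57 are shown as genes with that motif (in capitals) that rose in every formulation, and Mrpl45, whose rise was second only to that of Mrpl52, as a gene without it.
Mrpl52 (chr14:54426849-54426933, plus strand): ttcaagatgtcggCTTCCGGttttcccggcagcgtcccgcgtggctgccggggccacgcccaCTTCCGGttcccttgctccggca
Mrpl53 (chr6:83109048-83109132, plus strand): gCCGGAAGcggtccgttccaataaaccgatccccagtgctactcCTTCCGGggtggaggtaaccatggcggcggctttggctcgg
Mrpl57 (chr14:57826179-57826263, plus strand): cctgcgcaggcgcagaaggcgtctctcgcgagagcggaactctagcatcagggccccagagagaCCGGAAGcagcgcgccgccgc
Mrpl45 (chr11:97315656-97315740, plus strand): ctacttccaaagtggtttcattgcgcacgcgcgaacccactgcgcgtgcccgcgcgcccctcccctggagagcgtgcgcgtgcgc
Other motifs were looked for on both strands. The E-box CACGTG was in 8.96% of cytosolic and 7.35% of mitochondrial genes against 8.09% of all, and the TATA letters TATAAA in 10.4% and 7.35% against 15.7%. The YY1 motif, whose letters can overlap the ETS motif, was in 4.48% and 7.35% against 0.995%, and the NRF1 motif in 2.99% and 4.41% against 1.07%. These are matches of letters and not measured binding.

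Libraries held 9740528 to 23874805 gene counts, with LP mouse 2 the lowest. All 7 macrophage markers looked for were present in every library (Adgre1, Csf1r, Cd68, Lyz2, Itgam, Mertk and Fcgr1), with a summed level of 13192 to 19483 CPM (counts divided by the library's total, on the usual CPM scale) in LP PIC, 20554 to 26504 CPM in LP 3M, 10966 to 15947 CPM in LP 3M PIC and 11048 to 18567 CPM in LP. The 5 erythroid markers were at 0 in all 20 libraries, as were Cd3e, Cd8a, Pax5 and Cd209a. Other T cell, B cell and dendritic cell markers were detected. The highest of each type were Cd4 (up to 2.12 CPM), Cd79b (up to 1.00 CPM) and Zbtb46 (up to 0.706 CPM). Of 8 neutrophil markers 7 were in the tables, with a summed level of 2.68 to 5.07 CPM in LP PIC, 4.04 to 17.2 CPM in LP 3M, 4.86 to 537 CPM in LP 3M PIC and 1.26 to 3.62 CPM in LP. The highest of these sums, in LP 3M PIC mouse 2, was nearly all S100a8 (536 CPM), and Retnlg was at 0 throughout. The 5 fibroblast markers summed to 24.3 to 72 CPM in LP PIC, 29.7 to 87.1 CPM in LP 3M, 26.5 to 106 CPM in LP 3M PIC and 14.9 to 63.6 CPM in LP. Reads matching several places in the genome were not summarised here. Reads counted as ambiguous between genes made up 1.75 ± 0.0921% in LP PIC and 1.26 ± 0.0834% in LP 3M. Their share was 1.53 ± 0.178% in LP 3M PIC and 1.24 ± 0.0876% in LP (mean ± SD over n = 5 mice, as for all CPM values). The part of these values in the results was not tested.

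Levels per kb of exon set the classes far apart. The median gene stood at 160 CPM per kb in the cytosolic class and 12.7 CPM per kb in the mitochondrial class, averaged over the 20 libraries. Highest per kb in the cytosolic class were Rplp1, Rpl19 and Rplp0, at 1293, 663 and 568 CPM per kb. In the mitochondrial class Mrpl52, Mrpl54 and Mrps21 were highest, at 53.4, 52.6 and 44.6 CPM per kb. The tables placed a few cytosolic genes at or near 0: Rpl10l, Rpl26 and Rps27rt had no count in any library, Rpl3l had 24 counts in all, and Rpl30, Rpl34 and Rps27 averaged 0.440 to 1.07 CPM in each condition. Since Rpl26, Rpl30, Rpl34 and Rps27 encode core ribosomal proteins, these values describe the tables, and their reason was not tested. The tables list 7 ribosomal pseudogene rows (10.9 to 35.3 CPM in sum) where the GENCODE vM21 annotation has 300. After removal of low counts 161 genes were tested, 84 cytosolic and 77 mitochondrial, with Rpl10l, Rpl26, Rps27rt and Rpl3l left out.

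The ratio of cytosolic to mitochondrial ribosomal protein transcripts was lower in each formulation than in LP, and lowest in the dual one. Cytosolic counts summed to 26492, 26095, 32730, 31027 and 30078 CPM in LP PIC libraries of mice 1 to 5, 29587, 28195, 28577, 29016 and 28985 CPM in LP 3M, 23939, 23454, 23990, 24349 and 27806 CPM in LP 3M PIC and 33289, 28043, 34216, 33283 and 29852 CPM in LP. All 5 LP 3M PIC libraries lay below all 5 LP libraries, while LP PIC and LP 3M each overlapped LP. The means were 29284 ± 2894 CPM in LP PIC, 28872 ± 522 CPM in LP 3M, 24708 ± 1761 CPM in LP 3M PIC and 31737 ± 2653 CPM in LP, so that the dual formulation stood 22.1% below LP. With TMM-scaled totals, a normalisation that assumes most genes keep their level, the mean was 25488 ± 1291 CPM in LP 3M PIC and 30367 ± 3262 CPM in LP, and the libraries overlapped, at 24687 to 27771 CPM in LP 3M PIC and 26169 to 34394 CPM in LP. In bulk RNA, fewer cells of a type and less RNA per cell cannot be told apart.

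Mitochondrial counts went the other way in LP PIC and LP 3M PIC. Their sums were 2399, 2428, 2513, 2752 and 2510 CPM in LP PIC, 2312, 2233, 2184, 2218 and 2122 CPM in LP 3M, 2311, 2307, 2432, 2468 and 2727 CPM in LP 3M PIC and 2235, 2111, 2114, 2150 and 2087 CPM in LP. Every LP PIC and LP 3M PIC library lay above every LP library, whereas LP 3M overlapped LP although each mouse was higher than in its own LP library. That rise in LP 3M was not shared by both subunits. The small subunit sum was 712 ± 17.2 CPM in LP 3M and 722 ± 18.6 CPM in LP, lower in 4 of 5 mice. The large subunit sum, which includes the strongly raised Mrpl52 and Mrpl45, was 1502 ± 52.8 CPM and 1417 ± 41.3 CPM, higher in 5 of 5. The means were 2520 ± 139 CPM in LP PIC, 2214 ± 69.7 CPM in LP 3M, 2449 ± 171 CPM in LP 3M PIC and 2139 ± 58.3 CPM in LP.

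The ratio of the sums does not depend on library scaling. Libraries of mice 1 to 5 had a ratio of 11, 10.7, 13, 11.3 and 12 in LP PIC, of 12.8, 12.6, 13.1, 13.1 and 13.7 in LP 3M, while it was 10.4, 10.2, 9.86, 9.87 and 10.2 in LP 3M PIC, and in LP 14.9, 13.3, 16.2, 15.5 and 14.3. Each formulation was below LP in 5 of 5 mice, and all LP 3M PIC libraries were below every other library. The mean ratio was 11.6 ± 0.912 with LP PIC, 13 ± 0.394 with LP 3M and 10.1 ± 0.219 with LP 3M PIC, against 14.8 ± 1.11 in LP. Without Mrpl52 and Mrpl45, the mitochondrial genes with the largest rises, the means were 12.2 for LP PIC, 13.9 for LP 3M and 10.9 for LP 3M PIC, against 15.3 for LP. With geometric means, in which each gene weighs the same, they were 7.32 for LP PIC, 8.24 for LP 3M and 6.58 for LP 3M PIC, against 9.12 for LP. Both of these alternatives were added after the data were seen, and no test was made of sums over genes chosen with earlier results known. Proliferation markers (Mki67, Top2a, Ccnb1, Cdk1, Pcna and Mcm2) moved too, with summed levels of 222 to 246 CPM in LP PIC, 504 to 764 CPM in LP 3M and 237 to 321 CPM in LP 3M PIC, against 716 to 1358 CPM in LP. All 6 had lower means in each formulation than in LP, and their part in the ribosomal protein levels was not tested.

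**Figure D1:**
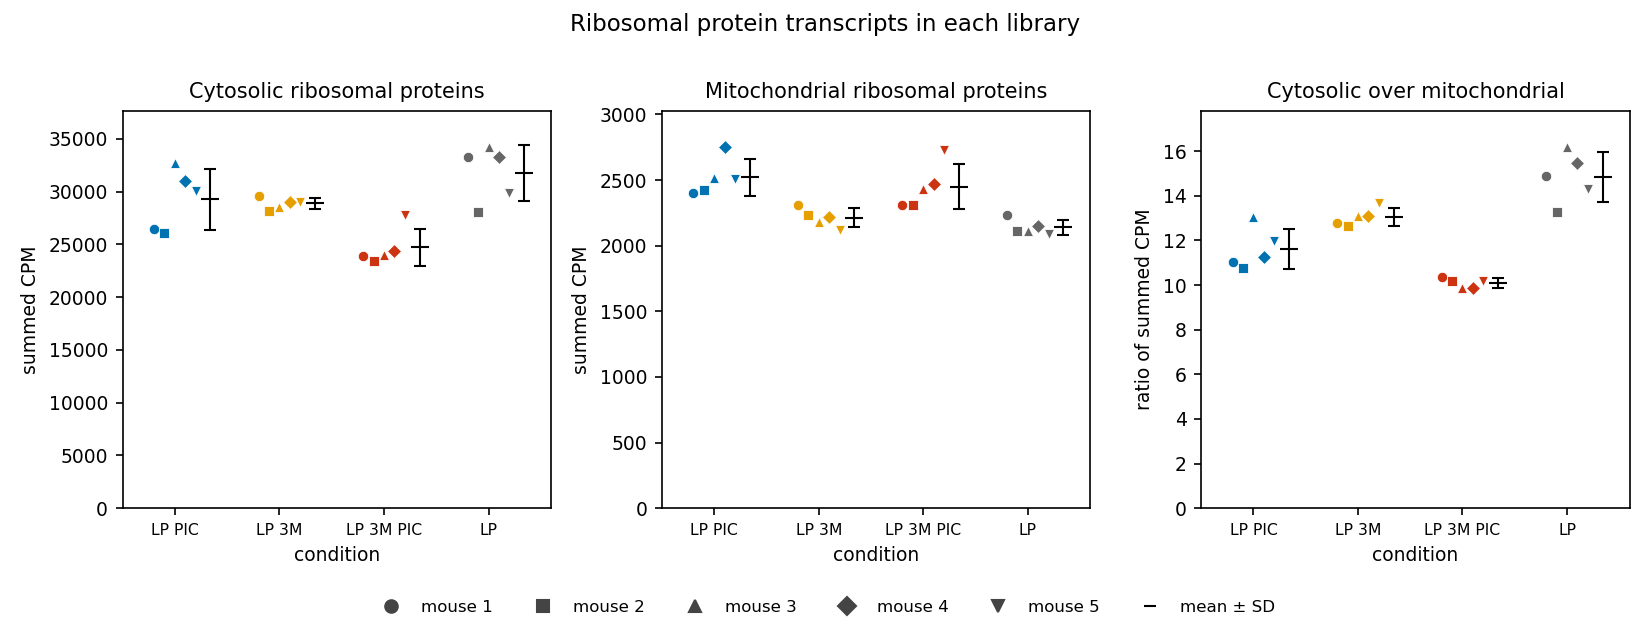
Summed CPM of the cytosolic (left) and mitochondrial (middle) ribosomal protein genes and their ratio (right) in each library, by condition. Symbols are mice and black bars the mean ± SD over 5 mice; in the right panel the LP 3M PIC ratios of 9.86 to 10.4 lie below all other libraries.

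Single genes were tested with the edgeR quasi-likelihood test on raw counts, with p adjusted over all 12132 tested genes and genes called at an adjusted p under 0.05. Log2 fold changes are given ± SE. The contrasts with LP share the same 5 LP libraries. These fold changes are TMM-scaled, whereas overlaps of libraries for single genes are read from CPM of plain totals and can differ under TMM scaling. With plain library totals in place of TMM scaling the median change of all genes moved by −0.11 on the log2 scale in LP 3M against LP, by −0.11 in LP 3M PIC against LP and by −0.04 in LP PIC against LP, so counts are given under both scalings.

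In LP PIC against LP, 44 of 77 mitochondrial genes rose (57.1%, against 22.7% of all genes) and 1, Mrps27, fell, with a median log2 fold change of 0.24. Of these rises 31 held in every alternative and 42 were higher in 5 of 5 mice, and with plain totals 35 genes rose and 1 fell. The fall of Mrps27 (adjusted p = 0.0454) ended with TMM factors made without these genes, without a filter on low counts, without mouse 1, 2, 3 or 4 and without LP mouse 2, at an adjusted p of up to 0.197. Of 84 cytosolic genes 4 rose and 9 fell, where 22.7% of all genes were lower and 45.5% were called in either direction, with a median of −0.07. With the mouse as a block 8 rose and 11 fell, without LP mouse 2 the split was 2 higher and 17 lower, without mouse 4 it was 2 and 8, and with plain totals 3 and 15.

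In LP 3M against LP the split of calls depended on the scaling in both classes. Of 84 cytosolic genes 3 rose and 0 fell, against 20.0% and 19.5% of all genes (39.5% in either direction), with a median of −0.01. At an unadjusted p under 0.05 4 were higher and 3 lower, and DESeq2 called 3 higher and 3 lower. The falls were 3 under the mouse block, 3 without mouse 2, 5 without LP mouse 2 and 17 with plain totals, where 1 gene rose. The rises were also 1 without mouse 1, 1 without mouse 4 and 1 without a filter on low counts. Of the mitochondrial genes 17 of 77 rose (22.1%, close to the 20.0% of all genes) and 0 fell, with a median of 0.08. Unadjusted, 22 were higher and 3 lower, and DESeq2 called 16 higher and 0 lower. With plain totals 10 mitochondrial genes were higher and 7 lower.

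In LP 3M PIC against LP, 46 of 84 cytosolic genes fell (54.8%, against 30.6% of all genes) and 5 rose (31.7% of all genes, 62.2% in either direction), with a median of −0.25 against 0.02 over all genes. Both subunits took part, with 26 of 50 large and 20 of 34 small subunit genes lower. Of the falls 30 held in every alternative and 30 were lower in 5 of 5 mice, and with plain totals 63 genes fell and 4 rose. Of the mitochondrial genes 41 of 77 rose (53.2%) and 0 fell by edgeR, with a median of 0.23, and 27 of 48 large and 14 of 29 small subunit genes were among the rises. At an unadjusted p under 0.05 there were 5 lower mitochondrial genes and DESeq2 called 0, while 3 were called lower under the mouse block, 1 without mouse 4, 4 without mouse 5, 2 without LP mouse 2 and 8, beside 31 higher, with plain totals. Relative to the median of all genes the cytosolic median was −0.26 and the mitochondrial one 0.21, and with plain totals −0.26 and 0.21.

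**Figure D2:**
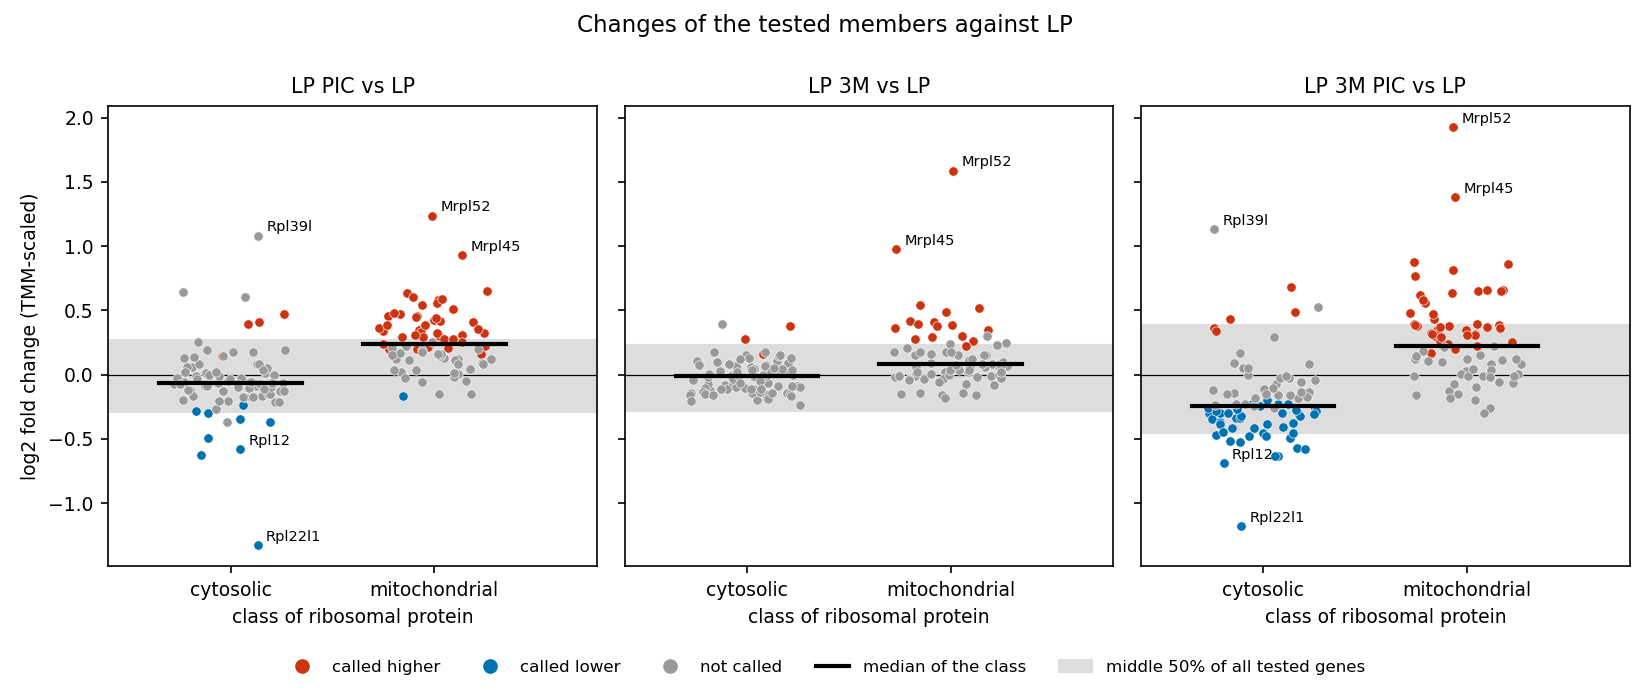
Log2 fold change of each tested ribosomal protein gene against LP (vertical axis, TMM-scaled) in the 3 formulations, by class. Points are genes, coloured by call, black lines are class medians and the grey band is the middle 50% of all tested genes; in the dual formulation the cytosolic median is −0.25 and the mitochondrial one 0.23.

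Among large subunit genes of the cytosolic ribosome, Rpl22l1, a paralog of Rpl22 that can take its place in the ribosome, had the largest fall. It was at 9.48, 10.8, 12.3, 10.4 and 9.62 CPM in LP PIC, 27, 33.1, 19.7, 21.2 and 18.4 CPM in LP 3M and 10.2, 15.7, 9.09, 10.1 and 10.3 CPM in LP 3M PIC. In LP, Rpl22l1 was at 33, 31.4, 23.2, 24.9 and 24.2 CPM. LP PIC and LP 3M PIC lay below every LP 3M and LP library, whereas LP 3M and LP overlapped. The log2 fold change against LP was −1.33 ± 0.17 (adjusted p = 4.12e-06) in LP PIC, −0.08 ± 0.17 (adjusted p = 0.742) in LP 3M and −1.18 ± 0.17 (adjusted p = 7.15e-06) in LP 3M PIC. Rpl22 itself was at 137 to 157 CPM in LP 3M PIC and 162 to 176 CPM in LP, a change of −0.14 ± 0.06 (adjusted p = 0.049). That call ended without a filter on low counts and without mouse 1, 3 or 4, at an adjusted p of up to 0.164. In the single formulations Rpl22 was uncalled, at −0.03 in LP PIC and 0.02 in LP 3M.

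Rpl12, which sits at the base of the stalk of the large subunit, was at 256, 274, 382, 317 and 408 CPM in LP PIC, 462, 464, 421, 434 and 419 CPM in LP 3M and 277, 296, 281, 286 and 309.9 CPM in LP 3M PIC. In LP, Rpl12 was at 552, 488, 496, 490.2 and 494 CPM. In CPM of plain totals all formulations lay below every LP library, whereas with TMM scaling LP 3M overlapped LP. Its log2 fold change was −0.58 ± 0.10 (adjusted p = 0.000171) in LP PIC, −0.09 ± 0.10 (adjusted p = 0.54) in LP 3M and −0.69 ± 0.10 (adjusted p = 1.29e-05) in LP 3M PIC. Its exons overlap Lrsam1 on the other strand and the small nucleolar RNA Snora65 on its own, and the strand setting of the counting is not given in the sources used here. In all, 71 of the 165 genes have an exon that overlaps another annotated gene. Rpl10a, of the L1 stalk, ran at 155 to 239 CPM in LP PIC, 231 to 264 CPM in LP 3M, 146 to 192 CPM in LP 3M PIC and 252 to 330.3 CPM in LP. It fell by 0.62 ± 0.12 (adjusted p = 0.000372) in LP PIC and by 0.63 ± 0.12 (adjusted p = 0.000176) in LP 3M PIC, and stood at −0.12 ± 0.12 (adjusted p = 0.452) in LP 3M. Rpl3, near the peptidyl transferase centre, fell by 0.49 ± 0.12 (adjusted p = 0.00279) in LP PIC and by 0.37 ± 0.12 (adjusted p = 0.0123) in LP 3M PIC. The second of these calls ended without mouse 1 or 3, at an adjusted p of up to 0.0578. Rpl10, which is added late to the large subunit, was at 568 to 685 CPM in LP 3M PIC and 722 to 939 CPM in LP, without overlap, and fell by 0.41 ± 0.09 (adjusted p = 0.000551). Under the mouse block Rpl10 was also called lower in LP PIC (adjusted p = 0.0271) and LP 3M (adjusted p = 0.032), where the unblocked values were 0.0794 and 0.0821.

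Rplp0, Rplp1 and Rplp2 form the stalk itself, which recruits translation factors. Rplp1 was at 533, 547, 491, 555 and 550.3 CPM in LP 3M PIC and 775, 694, 747, 723 and 669.6 CPM in LP. These libraries did not overlap, and Rplp1 fell by 0.32 ± 0.08 (adjusted p = 0.00117), whereas LP PIC (576 to 697 CPM) and LP 3M (635 to 754 CPM) overlapped LP and were uncalled. Rplp0 was at 780.4 to 969 CPM in LP 3M PIC and 916 to 1081 CPM in LP, a change of −0.11 ± 0.08 (adjusted p = 0.242) that was not called. Rplp2 was at 268 to 362 CPM in LP 3M PIC and 316 to 391 CPM in LP, also uncalled at −0.15 ± 0.11 (adjusted p = 0.24). With plain totals both would be called lower, at adjusted p of 0.0191 and 0.0336. Rpl19, at 657 to 815 CPM in LP PIC, 622 to 688 CPM in LP 3M, 568 to 753 CPM in LP 3M PIC and 572 to 748 CPM in LP, was uncalled in every formulation. Rpl13a, known in human monocytes for silencing inflammatory mRNAs outside the ribosome, was uncalled as well, at 402 to 559 CPM in LP PIC, 366 to 400.3 CPM in LP 3M, 343 to 454 CPM in LP 3M PIC and 452 to 471 CPM in LP, but was called lower in LP 3M with plain totals (adjusted p = 0.0325).

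Rpsa, of the small subunit and also known as the laminin receptor, was at 569, 554, 752, 591 and 745 CPM in LP PIC, 826, 785, 799, 867 and 832 CPM in LP 3M and 535, 583, 608, 581 and 594 CPM in LP 3M PIC. In LP, Rpsa was at 849, 845, 914, 876 and 792 CPM. LP PIC and LP 3M PIC did not overlap LP, and LP 3M did. The log2 fold changes were −0.37 ± 0.09 (adjusted p = 0.00215) in LP PIC, 0.05 ± 0.09 (adjusted p = 0.684) in LP 3M and −0.45 ± 0.09 (adjusted p = 0.000216) in LP 3M PIC. Rps21 was at 147, 155, 198, 193 and 199.8 CPM in LP PIC, 174, 168, 171, 162 and 182 CPM in LP 3M and 118, 123, 133, 131 and 155 CPM in LP 3M PIC. In LP, Rps21 was at 215, 200, 210, 211 and 229 CPM. In CPM of plain totals every formulation lay below every LP library, with the lowest mean in the dual one. There Rps21 fell by 0.58 ± 0.09 (adjusted p = 1.17e-05). LP PIC (−0.21 ± 0.09, adjusted p = 0.0583) and LP 3M (−0.21 ± 0.09, adjusted p = 0.0685) were uncalled, and were called under the mouse block at 0.0201 and 0.0311. Rps4x, whose gene lies on the X chromosome, fell by 0.28 ± 0.07 (adjusted p = 0.00179) in LP PIC and by 0.52 ± 0.07 (adjusted p = 1.36e-06) in LP 3M PIC. In LP 3M it stood at −0.15 ± 0.07 (adjusted p = 0.0692), called under the mouse block at 0.0376.

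Rps6, the substrate of the S6 kinases downstream of mTORC1, was at 249 to 316 CPM in LP 3M PIC and 262 to 404 CPM in LP. The groups overlapped and the change of −0.23 ± 0.11 (adjusted p = 0.0859) was not called. Without mouse 2 or LP mouse 2, and with plain totals, it was called lower, at an adjusted p of down to 0.00728. Rps3, which lies at the mRNA entry, was at 466 to 528 CPM in LP 3M PIC and 595 to 624 CPM in LP, without overlap, as was LP 3M (526 to 565 CPM), but its change in LP 3M PIC of −0.16 ± 0.07 (adjusted p = 0.0684) was not called by edgeR (by DESeq2, adjusted p = 0.0371). Rps19, mutated in human Diamond-Blackfan anaemia, was at 234, 210.4, 233, 258 and 330.5 CPM in LP 3M PIC and 376, 249, 376, 364 and 321 CPM in LP. These overlapped, and the fall of Rps19 (−0.31 ± 0.12, adjusted p = 0.0349) ended without mouse 1, 3 or 4, at an adjusted p of up to 0.175.

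**Figure D3:**
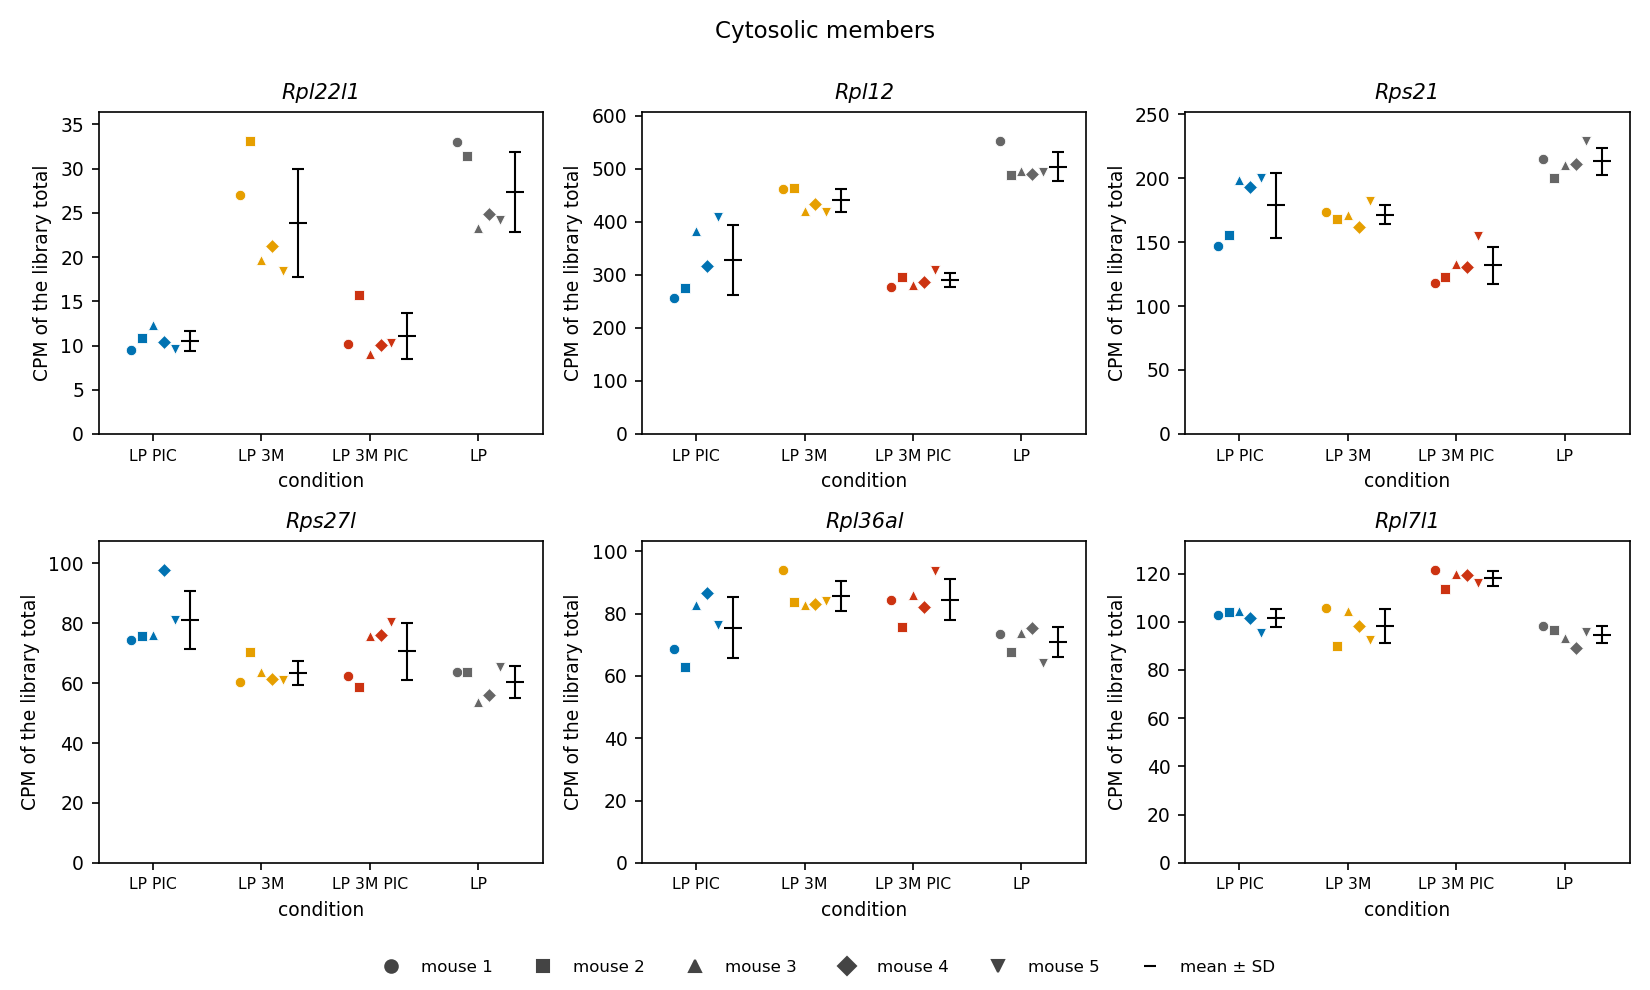
CPM of 6 genes of the cytosolic class in each library, by condition. Symbols are mice and black bars the mean ± SD over 5 mice; Rpl22l1 is at 9.09 to 15.7 CPM in both conditions with PIC and at 18.4 to 33.1 CPM in LP 3M and LP.

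The cytosolic-class genes that rose were Rpl24, paralogs and factors outside the mature ribosome. Rpl7l1 was at 103, 104, 104, 102 and 95.3 CPM in LP PIC, 106, 89.8, 104, 98.3 and 92.4 CPM in LP 3M and 121, 114, 119.9, 119 and 116 CPM in LP 3M PIC. In LP, Rpl7l1 was at 98.4, 96.5, 93.2, 89.3 and 95.6 CPM. The dual formulation was above every other library, with a rise of 0.43 ± 0.06 (adjusted p = 1.86e-06) against LP. The rise of 0.15 ± 0.06 (adjusted p = 0.0388) in LP PIC ended with plain totals, without a filter on low counts, without mouse 1, 2, 3 or 4 and without LP mouse 2, at an adjusted p of up to 0.163. The rise of 0.16 ± 0.06 (adjusted p = 0.0261) in LP 3M ended with plain totals, without a filter on low counts and without mouse 1, 3 or 4, at an adjusted p of up to 0.43. Rps19bp1 was at 21.2 to 28 CPM in LP PIC, 18.9 to 23.6 CPM in LP 3M, 20.2 to 26.5 CPM in LP 3M PIC and 15.5 to 20.8 CPM in LP. It rose by 0.41 ± 0.10 (adjusted p = 0.00252) in LP PIC, by 0.28 ± 0.10 (adjusted p = 0.0338) in LP 3M and by 0.48 ± 0.10 (adjusted p = 0.000345) in LP 3M PIC. The LP 3M call ended with plain totals, without a filter on low counts, without mouse 1, 2 or 4 and without LP mouse 2, at an adjusted p of up to 0.178. Rpl24, of the large subunit, rose by 0.40 ± 0.13 (adjusted p = 0.0193) in LP PIC, and that call ended without mouse 2 or 4 and without LP mouse 2, at an adjusted p of up to 0.0815.

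Rps27l, a paralog of Rps27 known as a p53 target, was at 74.4, 75.9, 76, 97.8 and 81 CPM in LP PIC and 63.7, 63.8, 53.6, 55.9 and 65.5 CPM in LP, without overlap. It rose by 0.47 ± 0.09 (adjusted p = 0.000298), and by 0.34 ± 0.09 (adjusted p = 0.00303) in LP 3M PIC, where its 58.6 to 80.3 CPM overlapped LP. In LP 3M it was uncalled, at 0.18 ± 0.09 (adjusted p = 0.12). Rpl36al was at 94, 83.9, 82.9, 83 and 84 CPM in LP 3M, 84.5, 75.7, 86, 82.3 and 93.8 CPM in LP 3M PIC and 73.6, 67.8, 73.7, 75.5 and 64.2 CPM in LP. It did not overlap LP in either, and rose by 0.38 ± 0.09 (adjusted p = 0.00206) in LP 3M and by 0.36 ± 0.09 (adjusted p = 0.00142) in LP 3M PIC. Its partner Rpl36a fell by 0.47 ± 0.11 (adjusted p = 0.00121) in LP 3M PIC, with 87.6 to 128 CPM there and 134 to 177 CPM in LP. Rpl39, which lines the exit tunnel, was at 131 to 154 CPM in LP 3M PIC and 173 to 225 CPM in LP, and fell by 0.45 ± 0.11 (adjusted p = 0.00103). In LP PIC it fell by 0.30 ± 0.11 (adjusted p = 0.0255), a call that ended without mouse 1 or 5, at an adjusted p of up to 0.185. The paralog Rpl39l was uncalled against LP, at 0.259 to 0.804 CPM in LP PIC, 0.0454 to 0.523 CPM in LP 3M, 0.128 to 1.12 CPM in LP 3M PIC and 0.103 to 0.653 CPM in LP. Under the mouse block Rpl39l was called higher in LP PIC and LP 3M PIC (adjusted p = 0.021 and 0.0164). Its lowest values in LP and LP 3M were below 3 counts, a floor of 0.126 to 0.308 CPM across libraries. Rps4l, a paralog of Rps4x, was at 3.91 to 11.8 CPM in LP 3M PIC and 3.49 to 7.36 CPM in LP, a rise of 0.68 ± 0.29 (adjusted p = 0.0484) that ended with plain totals, with DESeq2 size factors, with TMM factors made without these genes, without a filter on low counts, without mouse 1, 2, 4 or 5 and without LP mouse 2, at an adjusted p of up to 0.153. These paralogs share sequence with their partners, and how reads matching both were counted is not given in the sources used here.

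In the mitochondrial class Mrpl52, a large subunit protein, had the largest rise in each formulation. It was at 50.7, 47.8, 66.9, 63.4 and 54.2 CPM in LP PIC, 82.5, 70.1, 67.9, 69.8 and 54.1 CPM in LP 3M and 85.2, 96, 78.2, 91.3 and 85.3 CPM in LP 3M PIC. In LP, Mrpl52 was at 22.2, 14.6, 33.2, 29.3 and 23 CPM. Every library of every formulation was above every LP library. The log2 fold changes were 1.24 ± 0.17 (adjusted p = 1.41e-05) in LP PIC, 1.59 ± 0.18 (adjusted p = 1.62e-06) in LP 3M and 1.93 ± 0.18 (adjusted p = 3.02e-08) in LP 3M PIC, that is 2.36-fold with LP PIC, 3.01-fold with LP 3M and 3.81-fold with LP 3M PIC. Mrpl45, which in mammals anchors the large subunit at the inner membrane beside the exit tunnel, was at 71.3, 75.4, 64.4, 75.5 and 56.9 CPM in LP PIC, 73.8, 69.4, 71.5, 73.6 and 49.7 CPM in LP 3M and 91.1, 80.4, 90.4, 93.1 and 93.6 CPM in LP 3M PIC. In LP, Mrpl45 was at 39.9, 40.8, 36.6, 36.3 and 32.3 CPM. Again no formulation overlapped LP, and the rises were 0.93 ± 0.11 (adjusted p = 8.38e-07) in LP PIC, 0.98 ± 0.11 (adjusted p = 9.85e-07) in LP 3M and 1.38 ± 0.11 (adjusted p = 2.43e-09) in LP 3M PIC. Mrpl52 lies at chr14:54426909-54429756 (plus strand, GRCm38) and Mrpl45 at chr11:97315716-97329920 (plus strand), and no exon of either overlaps another annotated gene.

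Other large subunit genes rose less. Mrpl53 was at 17.7, 20.3, 19.1, 19.5 and 17.7 CPM in LP PIC, 19.3, 18.8, 16.2, 18.1 and 13.1 CPM in LP 3M and 24, 20.1, 24.2, 26 and 26.9 CPM in LP 3M PIC. In LP, Mrpl53 was at 15.4, 15.5, 11.8, 14.2 and 14.5 CPM. LP PIC and LP 3M PIC lay above LP and LP 3M overlapped it, with rises of 0.45 ± 0.10 (adjusted p = 0.00117) in LP PIC, 0.38 ± 0.10 (adjusted p = 0.00565) in LP 3M and 0.88 ± 0.10 (adjusted p = 3.88e-07) in LP 3M PIC. Its exons overlap the gene model Gm42688 on the same strand over 695 bases. Mrpl54 rose by 0.64 ± 0.10 (adjusted p = 2.36e-05) in LP PIC, 0.39 ± 0.10 (adjusted p = 0.00331) in LP 3M and 0.81 ± 0.10 (adjusted p = 5.58e-07) in LP 3M PIC. Mrpl57 rose by 0.60 ± 0.10 (adjusted p = 8.99e-05) in LP PIC, 0.52 ± 0.10 (adjusted p = 0.000525) in LP 3M and 0.66 ± 0.10 (adjusted p = 1.48e-05) in LP 3M PIC. Mrpl12, the counterpart of the bacterial stalk protein and also known to bind the mitochondrial RNA polymerase, was at 54.9 to 58.1 CPM in LP PIC, 51.5 to 61.9 CPM in LP 3M, 48.8 to 69.7 CPM in LP 3M PIC and 43.7 to 50.3 CPM in LP. Its rises were 0.30 ± 0.08 (adjusted p = 0.00486) in LP PIC, 0.41 ± 0.08 (adjusted p = 0.000542) in LP 3M and 0.38 ± 0.08 (adjusted p = 0.000377) in LP 3M PIC.

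Mrpl1, the counterpart of bacterial L1, and Mrpl38 rose in both conditions with PIC and were uncalled in LP 3M. Mrpl1 was at 16.6 to 28.6 CPM in LP PIC, 11.9 to 17.1 CPM in LP 3M, 18.2 to 20.6 CPM in LP 3M PIC and 14 to 18.7 CPM in LP. Its log2 fold changes were 0.65 ± 0.12 (adjusted p = 0.000283) in LP PIC, 0.02 ± 0.12 (adjusted p = 0.907) in LP 3M and 0.43 ± 0.12 (adjusted p = 0.00549) in LP 3M PIC. Mrpl38 was at 38.2, 36.8, 44, 44 and 42.3 CPM in LP PIC, 30.6, 30.3, 33.9, 32.2 and 30.9 CPM in LP 3M and 42.2, 31.9, 63.9, 52.8 and 54.3 CPM in LP 3M PIC. In LP, Mrpl38 was at 26, 32.9, 30.5, 27 and 29 CPM. Mouse 2 of LP 3M PIC stood within the LP range while the other 4 lay above it, and the rises were 0.54 ± 0.13 (adjusted p = 0.00166) in LP PIC and 0.86 ± 0.13 (adjusted p = 8.7e-06) in LP 3M PIC. In LP 3M the change was 0.23 ± 0.13 (adjusted p = 0.155), called without mouse 2 (adjusted p = 0.0489). Mrpl47 rose by 0.41 ± 0.13 (adjusted p = 0.0133) in LP PIC and by 0.65 ± 0.13 (adjusted p = 0.000218) in LP 3M PIC. The first of these calls ended without mouse 1 or 4, at an adjusted p of up to 0.076, and its exons overlap those of Actl6a and Ndufb5 on the other strand.

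Mrps18a, Mrps18b and Mrps18c are the mammalian counterparts of bacterial protein S18. Mrps18b was at 25.1, 27.1, 29.1, 26.2 and 32 CPM in LP PIC, 31.4, 31.5, 35.1, 32 and 27.8 CPM in LP 3M and 33.2, 34.5, 38.4, 40.2 and 38.2 CPM in LP 3M PIC. In LP, Mrps18b was at 21.5, 24.1, 24.5, 24.6 and 22.2 CPM. Every formulation was above LP, and the rises were 0.30 ± 0.08 (adjusted p = 0.00576) in LP PIC, 0.54 ± 0.08 (adjusted p = 3.82e-05) in LP 3M and 0.77 ± 0.08 (adjusted p = 1.43e-07) in LP 3M PIC. Mrps18a, whose protein is found in the large subunit of the human mitochondrial ribosome, rose by 0.44 ± 0.08 (adjusted p = 0.000119) in LP PIC and by 0.36 ± 0.08 (adjusted p = 0.000457) in LP 3M PIC, and was uncalled in LP 3M, at 0.07 ± 0.08 (adjusted p = 0.487). Mrps18c rose by 0.51 ± 0.10 (adjusted p = 0.000249) in LP PIC and by 0.56 ± 0.10 (adjusted p = 4.51e-05) in LP 3M PIC. In LP 3M it rose by 0.28 ± 0.10 (adjusted p = 0.0266), a call that ended with plain totals, without mouse 1, 2 or 3 and without LP mouse 2, at an adjusted p of up to 0.146. Mrps21 was uncalled in each formulation, at 32.4 to 41.2 CPM in LP PIC, 26.8 to 33.5 CPM in LP 3M, 29.3 to 36.8 CPM in LP 3M PIC and 31.2 to 34.9 CPM in LP.

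**Figure D4:**
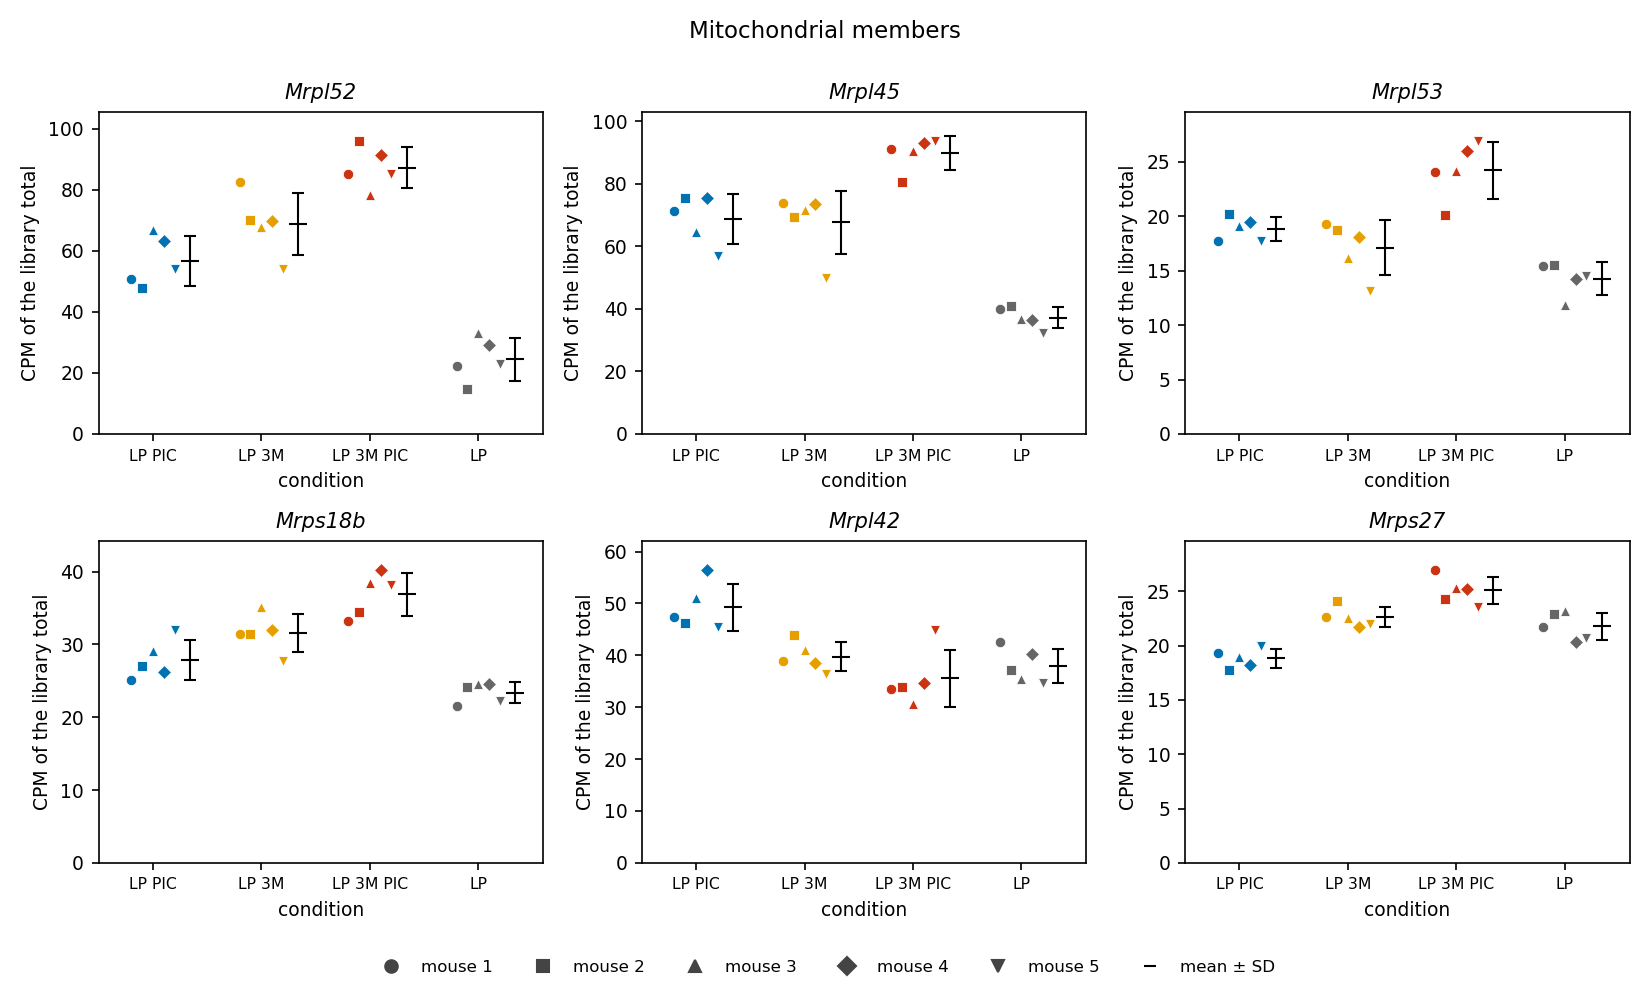
CPM of 6 mitochondrial ribosomal protein genes in each library, by condition. Symbols are mice and black bars the mean ± SD over 5 mice; Mrpl52 is at 47.8 to 96 CPM in the formulations and at 14.6 to 33.2 CPM in LP, and Mrpl42 has its highest mean in LP PIC.

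Set directly against each single formulation, the dual one had more cytosolic falls than rises. Against LP 3M, 31 of 84 fell (36.9%, against 21.0% of all genes) and 1, Rpl7l1 (0.27 ± 0.06, adjusted p = 0.000843), rose (20.5% of all genes, 41.5% in either direction), with a median of −0.20. The total of 32 calls became 16 without mouse 1, 21 without mouse 3 and 15 without mouse 4, while the split was 34 lower and 1 higher with plain totals and 40 and 3 under the mouse block. Rpl22l1 (−1.10 ± 0.17, adjusted p = 5.85e-05) and Rpl12 (−0.60 ± 0.10, adjusted p = 0.000171) had the largest falls. Against LP PIC, 21 fell and 2 rose, against 21.4% and 23.1% of all genes (44.5% in either direction), so the share of falls (25%) was close to the background. The total of 23 calls became 14 without mouse 1, 4 without mouse 3 and 5 without mouse 4, and it was 45 with plain totals. Leaving out a mouse removes 4 libraries, and calls over all genes went from 5397 to 4035, 4661 and 4172 in that order. The cytosolic median, −0.15, was −0.20 without mouse 1, −0.12 without mouse 3 and −0.14 without mouse 4. Rps19 (−0.45 ± 0.12, adjusted p = 0.00597) and Rps21 (−0.37 ± 0.09, adjusted p = 0.00212) had the largest falls. The rises were Rpl7l1 (0.29 ± 0.06, adjusted p = 0.000468) and Rpl36al (0.23 ± 0.09, adjusted p = 0.0409), of which the second ended with plain totals, with TMM factors made without these genes, without a filter on low counts and without mouse 1, 2, 3 or 5, at an adjusted p of up to 0.157.

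Of the mitochondrial genes, 27 of 77 were higher against LP 3M (35.1%, against 20.5%) and 2 lower, the same counts as with plain totals, with a median of 0.12. Mrpl38 (0.63 ± 0.13, adjusted p = 0.000614) and Mrpl47 (0.56 ± 0.13, adjusted p = 0.00181) had the largest rises. The falls were Mrpl28 (−0.22 ± 0.08, adjusted p = 0.0373), named after its value was seen, and Mrpl19. The Mrpl28 call ended without a filter on low counts and without mouse 1, 2 or 3, at an adjusted p of up to 0.168. Mrpl19 fell by 0.22 ± 0.06 (adjusted p = 0.00665), a call that ended without mouse 1, at an adjusted p of up to 0.0615, and its exons overlap those of Gcfc2 over 1962 bases on the other strand. Against LP PIC, 15 were higher and 7 lower, shares below those of all genes, with a median of 0.00. Plain totals turned the split to 7 higher and 17 lower, no filter on low counts gave 7 and 7, the mouse block 14 and 11, and without mouse 1 the 22 calls became 13. Mrpl52 (0.69 ± 0.17, adjusted p = 0.00312) and Mrps27 (0.48 ± 0.07, adjusted p = 1.74e-05) had the largest rises, and Mrpl42 (−0.40 ± 0.09, adjusted p = 0.00145) and Mrps36 (−0.38 ± 0.12, adjusted p = 0.0116) the largest falls. The call of Mrps36 ended without mouse 3 or 4, at an adjusted p of up to 0.0642.

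The interaction asks whether PIC changed a gene by a different amount on LP 3M than on LP. Of the cytosolic genes 0 of 84 were called by edgeR, against 3.82% of all genes above and 4.62% below 0 (8.43% in all), and DESeq2 called 0 too. At an unadjusted p under 0.05 there were 4 lower and 0 higher, and the mouse block called 1, Rps19 (adjusted p = 0.0438). The median was −0.16 in the cytosolic and −0.15 in the mitochondrial class, against 0.00 over all genes. Of the mitochondrial genes 6 of 77 were called (7.79%, near the 8.43% of all genes), 1 above and 5 below 0. That count became 0 without mouse 1, 1 without mouse 2, 1 without mouse 3, 0 without mouse 4, 11 without mouse 5 and 3 without LP mouse 2, and with plain totals it was 2 above and 3 below, under the mouse block 1 and 8. At an unadjusted p under 0.05 the mitochondrial genes were 16 lower and 2 higher.

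Mrpl52 had an interaction of −0.90 ± 0.24 (adjusted p = 0.0284), which ended without mouse 1 or 4, at an adjusted p of up to 0.169. Mrpl42, of the large subunit, was at 47.4, 46.3, 51, 56.5 and 45.4 CPM in LP PIC, 38.9, 43.9, 41, 38.5 and 36.5 CPM in LP 3M and 33.6, 34, 30.7, 34.7 and 44.9 CPM in LP 3M PIC. In LP, Mrpl42 was at 42.5, 37.2, 35.4, 40.2 and 34.6 CPM. LP PIC lay above every LP library, and the dual formulation overlapped LP. Its interaction of −0.58 ± 0.13 (adjusted p = 0.00935) ended without mouse 1, 2, 3 or 4, at an adjusted p of up to 0.0624. Mrps27, a small subunit protein with pentatricopeptide repeats, was at 19.3, 17.7, 18.9, 18.2 and 20.0 CPM in LP PIC, 22.6, 24.1, 22.6, 21.7 and 22 CPM in LP 3M and 27, 24.3, 25.3, 25.2 and 23.6 CPM in LP 3M PIC. In LP, Mrps27 was at 21.7, 22.9, 23.2, 20.4 and 20.7 CPM. In CPM of plain totals LP PIC lay below and LP 3M PIC above every LP library, whereas with TMM scaling LP PIC overlapped LP. The interaction was 0.32 ± 0.09 (adjusted p = 0.0401). That call ended without a filter on low counts, without mouse 1, 2, 3 or 4 and without LP mouse 2, at an adjusted p of up to 0.178. The other calls below 0 were Mrpl45 (−0.52 ± 0.15, adjusted p = 0.0337), which ended without mouse 1, 2, 3 or 4, at an adjusted p of up to 0.188, and Mrpl39 (−0.46 ± 0.14, adjusted p = 0.0439) and Mrpl16 (−0.41 ± 0.12, adjusted p = 0.0443), both named after their values were seen. Of these, Mrpl39 ended with plain totals, without a filter on low counts, without mouse 1, 2, 3 or 4 and without LP mouse 2, at an adjusted p of up to 0.17, and Mrpl16 ended with plain totals, without a filter on low counts, without mouse 1, 2, 3 or 4 and without LP mouse 2, at an adjusted p of up to 0.192.

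Ribosomal proteins that carry other names are given next, from lists written for these pathways. Of 3 cytosolic ones tested, 0 were called in LP PIC and 0 in LP 3M. In LP 3M PIC 1 fell (33.3%, against 30.6% of all genes), or 2 with plain totals, with a median of −0.20. Fau and Gnb2l1 (Rack1) were uncalled against LP in every formulation, although the mouse block called Gnb2l1 lower in LP 3M PIC (adjusted p = 0.0278). Of 5 mitochondrial ones, 3 rose in LP PIC (60%, against 22.7% of all genes) and 3 in LP 3M PIC (60%, against 31.7%). In LP 3M 2 rose (40%, against 20.0% of all genes), or 1 with plain totals. Dap3, a GTP-binding protein of the small subunit, was at 46.8 ± 4.46 CPM in LP PIC, 39.6 ± 1.46 CPM in LP 3M, 50.2 ± 4.55 CPM in LP 3M PIC and 36.5 ± 1.12 CPM in LP. It rose by 0.40 ± 0.07 (adjusted p = 0.000138) in LP PIC, 0.22 ± 0.07 (adjusted p = 0.0175) in LP 3M and 0.57 ± 0.07 (adjusted p = 1.19e-06) in LP 3M PIC, the LP 3M call ending with plain totals and without mouse 4 or 5, at an adjusted p of up to 0.184. Chchd1 rose by 0.43 ± 0.11 (adjusted p = 0.00315) in LP PIC, 0.49 ± 0.11 (adjusted p = 0.00128) in LP 3M and 0.61 ± 0.11 (adjusted p = 7.25e-05) in LP 3M PIC. Gadd45gip1 rose by 0.50 ± 0.11 (adjusted p = 0.00117) in LP PIC and by 0.55 ± 0.11 (adjusted p = 0.000261) in LP 3M PIC.

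Of 44 ribosome biogenesis genes tested, 11 rose and 7 fell in LP PIC (25% and 15.9%, against 22.7% and 22.7% of all genes). In LP 3M 33 rose and 0 fell (75% and 0%, against 20.0% and 19.5%), and in LP 3M PIC 28 rose and 2 fell (63.6% and 4.55%, against 31.7% and 30.6%). With plain totals these counts were 7 higher and 11 lower in LP PIC, 22 higher and 2 lower in LP 3M and 21 higher and 5 lower in LP 3M PIC. The median changes were 0.02 in LP PIC, 0.32 on the log2 scale in LP 3M and 0.27 with LP 3M PIC. Ebna1bp2, of large subunit assembly, was at 46 ± 2.67 CPM in LP PIC, 44.1 ± 2.49 CPM in LP 3M, 54.2 ± 0.802 CPM in LP 3M PIC and 36.4 ± 2.01 CPM in LP, and rose by 0.38 ± 0.06 (adjusted p = 7.68e-05) in LP PIC, 0.38 ± 0.06 (adjusted p = 0.000103) in LP 3M and 0.68 ± 0.06 (adjusted p = 2.59e-08) in LP 3M PIC. Rrp9, of the U3 small nucleolar particle, rose by 0.43 ± 0.08 (adjusted p = 0.000298) in LP PIC, 0.57 ± 0.08 (adjusted p = 2.53e-05) in LP 3M and 0.94 ± 0.08 (adjusted p = 1.22e-08) in LP 3M PIC. Rrs1, which helps load the 5S particle, rose by 0.72 ± 0.09 (adjusted p = 7.42e-06) in LP 3M and by 0.61 ± 0.09 (adjusted p = 1.22e-05) in LP 3M PIC. Rrp12 rose by 0.47 ± 0.07 (adjusted p = 3e-05) in LP 3M, and Wdr43, of small subunit processing, by 0.49 ± 0.06 (adjusted p = 6.68e-07) in LP 3M PIC. Ubtf, which drives RNA polymerase I at ribosomal DNA, fell by 0.49 ± 0.07 (adjusted p = 6.74e-06) in LP PIC and by 0.39 ± 0.07 (adjusted p = 4.26e-05) in LP 3M PIC. Ncl (nucleolin) fell in LP PIC by 0.41 ± 0.08 (adjusted p = 0.000185).

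Of 34 cytosolic translation factors, 3 rose and 8 fell in LP PIC (8.82% and 23.5%, against 22.7% and 22.7% of all genes). In LP 3M 16 rose and 3 fell (47.1% and 8.82%, against 20.0% and 19.5%), and in LP 3M PIC 13 rose and 10 fell (38.2% and 29.4%, against 31.7% and 30.6%). With plain totals these counts were 3 higher and 14 lower in LP PIC, 10 higher and 7 lower in LP 3M and 10 higher and 13 lower in LP 3M PIC. Eif6, which keeps the large subunit from joining the small one, was at 146 ± 6.10 CPM in LP PIC, 132 ± 12.5 CPM in LP 3M, 181 ± 19.7 CPM in LP 3M PIC and 84.4 ± 1.15 CPM in LP. It rose by 0.83 ± 0.08 (adjusted p = 5.17e-08) in LP PIC, 0.75 ± 0.08 (adjusted p = 4.22e-07) in LP 3M and 1.21 ± 0.08 (adjusted p = 2.12e-10) in LP 3M PIC. Tpt1, a classic TOP mRNA, was at 1151 ± 56.5 CPM in LP PIC, 1088 ± 121 CPM in LP 3M, 721 ± 106 CPM in LP 3M PIC and 1692 ± 147 CPM in LP. It fell by 0.51 ± 0.09 (adjusted p = 0.000198) in LP PIC, by 0.53 ± 0.09 (adjusted p = 0.00021) in LP 3M and by 1.12 ± 0.10 (adjusted p = 8.62e-09) in LP 3M PIC. Eif4b, a cofactor of the Eif4a helicase, fell by 0.46 ± 0.07 (adjusted p = 5.87e-05) in LP PIC, by 0.37 ± 0.07 (adjusted p = 0.000647) in LP 3M and by 0.76 ± 0.07 (adjusted p = 5.37e-08) in LP 3M PIC. Eif5a and Eif3b rose in LP 3M, by 0.58 ± 0.07 (adjusted p = 2.79e-06) and 0.46 ± 0.08 (adjusted p = 0.000101).

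Of 41 genes of mitochondrial translation outside the ribosome, 10 rose and 4 fell in LP PIC (24.4% and 9.76%, against 22.7% and 22.7% of all genes). In LP 3M 5 rose and 4 fell (12.2% and 9.76%, against 20.0% and 19.5%), and in LP 3M PIC 11 rose and 9 fell (26.8% and 22%, against 31.7% and 30.6%). With plain totals these counts were 7 higher and 7 lower in LP PIC, 2 higher and 12 lower in LP 3M and 4 higher and 11 lower in LP 3M PIC. Slirp, which stabilises mitochondrial mRNA with Lrpprc, rose by 0.63 ± 0.11 (adjusted p = 0.000162) in LP PIC, 0.52 ± 0.11 (adjusted p = 0.00123) in LP 3M and 0.80 ± 0.11 (adjusted p = 5.83e-06) in LP 3M PIC. Guf1, a homologue of the bacterial factor LepA, fell by 0.51 ± 0.11 (adjusted p = 0.000638) in LP PIC, by 0.42 ± 0.11 (adjusted p = 0.00433) in LP 3M and by 0.76 ± 0.11 (adjusted p = 5.66e-06) in LP 3M PIC. Eral1, a chaperone of the small subunit RNA, rose by 0.39 ± 0.08 (adjusted p = 0.000457) in LP PIC and by 0.34 ± 0.08 (adjusted p = 0.00102) in LP 3M PIC, and Gfm1, an elongation factor, by 0.34 ± 0.07 (adjusted p = 0.000569) in LP 3M.

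Of 25 growth control genes, 9 rose and 8 fell in LP PIC (36% and 32%, against 22.7% and 22.7% of all genes). In LP 3M 7 rose and 6 fell (28% and 24%, against 20.0% and 19.5%), and in LP 3M PIC 12 rose and 7 fell (48% and 28%, against 31.7% and 30.6%). With plain totals these counts were 9 higher and 8 lower in LP PIC, 5 higher and 8 lower in LP 3M and 8 higher and 9 lower in LP 3M PIC. Larp1, the binding protein of TOP mRNAs, was at 239 ± 16.5 CPM in LP PIC, 239 ± 22.1 CPM in LP 3M, 302 ± 33.3 CPM in LP 3M PIC and 165 ± 7.08 CPM in LP. It rose by 0.57 ± 0.08 (adjusted p = 8.07e-06) in LP PIC, 0.64 ± 0.08 (adjusted p = 3.67e-06) in LP 3M and 0.98 ± 0.08 (adjusted p = 3.82e-09) in LP 3M PIC. Sesn1, an inhibitor of mTORC1, fell by 1.41 ± 0.13 (adjusted p = 5.86e-08) in LP PIC, by 0.73 ± 0.13 (adjusted p = 0.000192) in LP 3M and by 2.26 ± 0.14 (adjusted p = 1.08e-10) in LP 3M PIC. Maf1, a repressor of RNA polymerase III, fell by 0.35 ± 0.06 (adjusted p = 6.84e-05) in LP 3M and by 0.33 ± 0.06 (adjusted p = 4.36e-05) in LP 3M PIC. Of the coactivators of nuclear genes for mitochondria, Pprc1 rose by 0.32 ± 0.06 (adjusted p = 0.00021) in LP PIC, 0.47 ± 0.06 (adjusted p = 6.7e-06) in LP 3M and 0.73 ± 0.06 (adjusted p = 5.74e-09) in LP 3M PIC, and Ppargc1b by 0.90 ± 0.14 (adjusted p = 3.76e-05) in LP PIC and 0.48 ± 0.14 (adjusted p = 0.0102) in LP 3M.

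**Figure D5:**
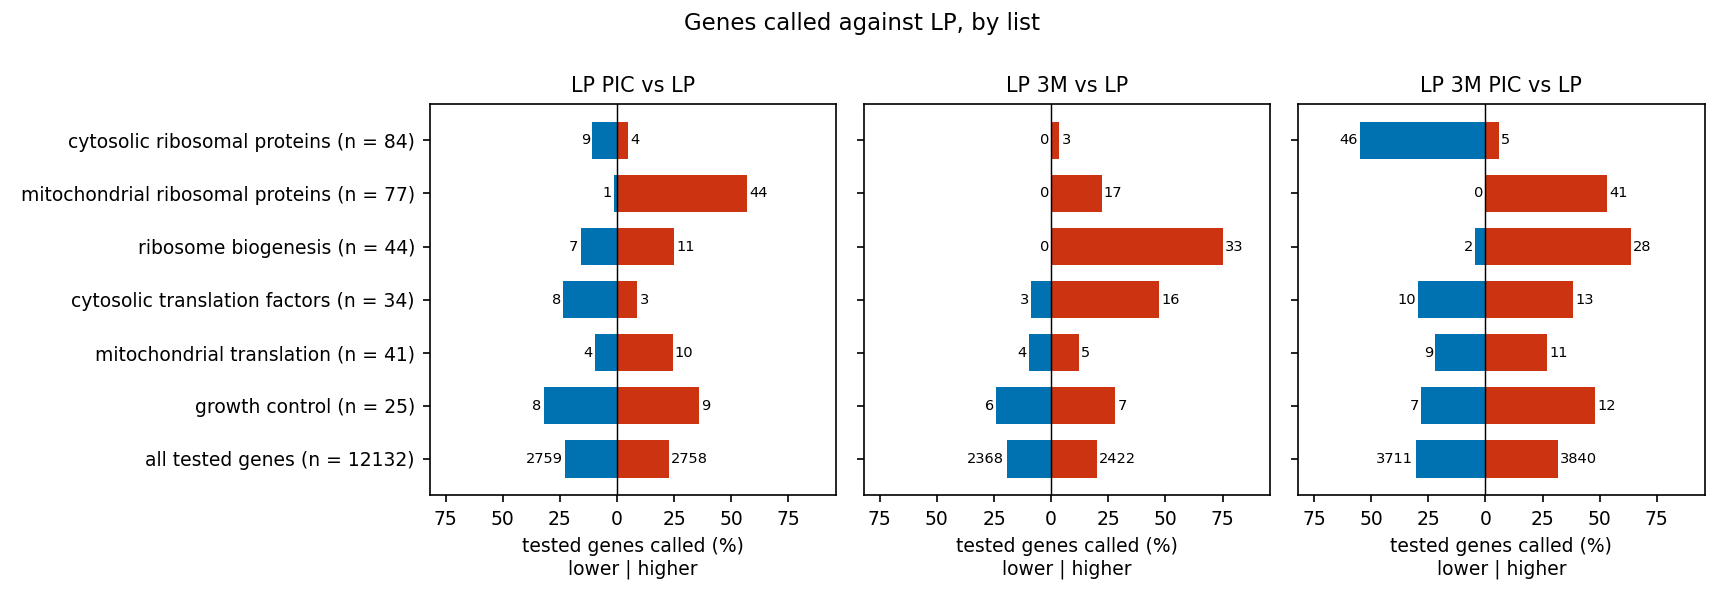
Percent of tested genes called lower (left of 0) and higher (right of 0) against LP for each list, with the number of genes beside each bar. Cytosolic ribosomal proteins reach 46 falls of 84 in LP 3M PIC, where 41 of 77 mitochondrial ones rise, against 30.6% and 31.7% of all tested genes.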

How the data were processed

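Per the labels' protocols, poly(A) RNA was made into stranded libraries. The authors deposited raw counts of reads per gene symbol, 1 table for each library. In the submitters' processing notes the tools are STAR 2.7.11b, HTSeq 0.13.5, FastQC 0.11.1 and DESeq2 1.44.0, and the build is GRCm38. Neither the annotation nor the strand setting is given in the sources used here. Rows that name no gene (no feature, 5.94 to 8.58%, and ambiguous, 1.14 to 1.90%) stayed out of library sizes and tests.

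CPM use plain library totals. Genes passing filterByExpr (minimum count 10, minimum total 15) were tested, 12132 genes with 99.969% of the counts. The fit was edgeR 4.0.16 in R 4.3.3 (quasi-likelihood F-test, two-sided, TMM factors 0.945 to 1.07, 1 mean per condition over 20 libraries) with Benjamini-Hochberg adjustment over all tested genes. SE is the absolute log2 fold change over the square root of F. Alternatives were DESeq2 1.42.0, plain totals, DESeq2 size factors, TMM without the ribosomal protein genes, no filter, a mouse block and leaving out each mouse (all 4 of its libraries). Leaving out LP mouse 2, the shallowest library, was chosen after seeing the data, as was a wider pyrimidine search at start sites (C and at least 6 pyrimidines within 20 bases, in 55.2% of cytosolic, 26.5% of mitochondrial and 24.0% of all genes). The fit was tested on simulated data with known changes in LP 3M PIC against LP, 50 genes for each size. It called 12% of 1.2-fold, 76% of 1.5-fold and 94% of 2-fold changes, and 0.0931% of unchanged genes. In that simulation 11821 of 12021 genes were unchanged and no mouse effect was drawn. In the data 62.2% of genes were called in this contrast, so the simulated rates need not hold for it. An uncalled gene may still have a small change. Tables and figures used Python 3.11.15, pandas 2.3.3 and matplotlib 3.10.9. Gene positions, lengths and exon overlaps are from GENCODE vM21.

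Libraries of the same mouse share an animal, and their deviations from the condition means correlated at 0.137 to 0.541 (30 pairs, median 0.399). Between mice the values were −0.404 to 0.375 (120 pairs, median −0.152). The main fit left this pairing out. Against LP it called 5517 genes in LP PIC and 4790 in LP 3M, where the mouse block called 6203 and 5558. Some genes written as uncalled may thus be called once the mouse is modelled. No 2 libraries were duplicates. Depth limits genes near 3 counts (0.126 to 0.308 CPM), and such floors cover counting error only.

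The genes and lists were chosen with earlier results of these data known. Named genes are, per class and contrast with LP, the 4 largest rises and falls among called genes with at least 5 CPM and the same direction in 5 of 5 mice, the 2 largest each way for the other contrasts (5 of 5 mice not asked of the interaction), a fixed panel, the 3 highest per kb, and the 3 smallest p per list and contrast with LP. A few genes that this rule names are not reported here.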

Additional observations from a re-analysis of the deposited data

Results flagged for a closer look

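Within a condition, 15 of 188 groups of 5 libraries held a value far from the other 4, where chance gives about 1 group in 20. LP 3M PIC mouse 5 was the high value of the cytosolic summed level (27806 CPM, the others 23454 to 24349 CPM) and of 4 genes, Rpl19 (753 CPM), Rpl39 (154 CPM), Mrpl42 (44.9 CPM) and Mrps36 (18.4 CPM). LP 3M PIC mouse 2 was high in Rpl22l1 (15.7 CPM) and low in Mrpl45 (80.4 CPM), and mouse 4 low in Rps27 (0.575 CPM). In LP 3M, mouse 5 was low in Mrpl45 (49.7 CPM), mouse 1 high in Rpl36al (94 CPM), mouse 2 low in Rps19 (286 CPM) and mouse 3 low in Mrpl19 (31.4 CPM). High values also stood in LP PIC mouse 4 for Rps27l (97.8 CPM), in LP mouse 1 for Rpl12 (552 CPM) and in LP mouse 4 for Rpl39l (0.653 CPM).

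The interaction in edgeR called 4 of the mitochondrial genes named by rule, where PIC made a different change on LP 3M than on LP. In all, 6 of 77 mitochondrial genes were called (7.79%), near the 8.43% of all genes, and 0 of these calls held in every alternative. The log2 values were −0.90 ± 0.24 (adjusted p = 0.0284) for Mrpl52, −0.52 ± 0.15 (adjusted p = 0.0337) for Mrpl45, 0.32 ± 0.09 (adjusted p = 0.0401) for Mrps27 and −0.58 ± 0.13 (adjusted p = 0.00935) for Mrpl42. Over the alternatives the adjusted p ran from 0.00628 to 0.169, 0.000598 to 0.188, 0.0114 to 0.178 and 0.00134 to 0.0624 in that order.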

How the results depend on the processing

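Several counts moved by over 1.5 times among the 12 alternatives, and with plain totals the balance of calls turned from more rises to more falls for the cytosolic genes in LP 3M against LP and for the mitochondrial genes in LP 3M PIC against LP PIC (15 and 7, against 7 and 17 with plain totals). The mitochondrial median in LP 3M against LP was 0.08, and −0.03 with plain totals, and the cytosolic one −0.01, and 0.02 without mouse 3. The mitochondrial median against LP PIC, 0.00, was −0.06 with plain totals. Ranges are over leaving out each mouse or LP mouse 2. For LP PIC against LP, cytosolic rises (4) were 8 under the mouse block (2 to 4 with a mouse left out), and falls (9) were 15 with plain totals (7 to 17). The 1 mitochondrial fall was 0 without a filter and 0 with TMM without the ribosomal protein genes (0 to 1). For LP 3M against LP, cytosolic rises (3) were 1 with plain totals and 1 without a filter (1 to 3), and falls (0) were 17 with plain totals, 3 with DESeq2 and 3 under the mouse block (0 to 5). Mitochondrial rises (17) were 10 and falls (0) 7 with plain totals, and falls were 1 with DESeq2 size factors and 1 with TMM without the ribosomal protein genes (0 to 1). For LP 3M PIC against LP, mitochondrial falls (0) were 8 with plain totals and 3 under the block (0 to 4). For LP 3M PIC against LP PIC, cytosolic calls (23) were 45 with plain totals (4 to 27) and mitochondrial calls (22) 14 without a filter (13 to 20). Against LP 3M, cytosolic calls (32) ran from 15 to 37. In the interaction the block gave 1 cytosolic call, and mitochondrial calls (6) were 3 without a filter (0 to 11). The cytosolic sum of 28872 CPM in LP 3M was 29757 with TMM-scaled totals, 29666 with DESeq2 size factors and 29507 with TMM without the ribosomal protein genes, and the mitochondrial sum of 2139 CPM in LP was 2044, 2050 and 2048. The mouse block also moved cytosolic rises against LP 3M (1) to 3, mitochondrial falls against LP PIC (7) to 11 and interactions below 0 (5) to 8, and no other count of a class by over 1.5 times. The cause of these shifts was not tested; leaving out a mouse removes 4 libraries, and LP mouse 2 is the shallowest.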
